A study of Mus musculus with 4 samples.

Results

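Mitochondrial ribosomal protein genes were taken as all genes of the deposited table whose symbol starts with Mrpl or Mrps followed by a number, leaving out symbols marked as pseudogenes. The rule found 78 of 55359 genes, 49 with an Mrpl and 29 with an Mrps symbol. Poly(A) RNA was sequenced in 4 libraries, called 01, 02, 21 and 22 after the numbers in their titles. Every label describes cultured female germline stem cells from mouse ovary, grown in all cases in the same medium, MEM-alpha with fetal bovine serum and 4 growth factors (LIF, GDNF, bFGF and EGF). The series design speaks of cells treated with celastrol, a plant triterpenoid, and of control cells, both at 12 h and in triplicate. No label says which library was treated, no strain or donor animal is named for any of them, and the libraries are therefore in no group. Values are given for each library in the order 01, 02, 21 and 22. They have no replicate error, and a difference between libraries cannot be read as an effect of celastrol.

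The mitochondrial ribosome translates the few mRNAs encoded by mitochondrial DNA, all of which specify membrane subunits of the respiratory chain and ATP synthase. Its rRNAs come from mitochondrial DNA, whereas every one of its proteins is encoded in the nucleus, made in the cytosol and imported. Part of these proteins have counterparts in bacterial ribosomes, and the others were added in the mitochondrial lineage. Symbols do not always give the subunit. Mrps18a and Mrps30 encode proteins of the large subunit, and Mrps36 encodes a protein now known as an adaptor of the 2-oxoglutarate dehydrogenase complex. By position in the ribosome the members comprised 51 proteins of the large subunit, 30 with a bacterial counterpart and 21 mitochondria-specific, and 26 of the small subunit, 16 with a bacterial counterpart and 10 mitochondria-specific. Mrps36 was kept apart.

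The libraries held between 12339636 and 13039541 counts. Levels are in FPKM, the count of a gene scaled by its exonic size and by the total of its library. Of 10 markers of germ cells, 8 stayed under 1 FPKM throughout, and Ddx4, the defining germ cell helicase gene, had 0, 2, 0 and 0 counts. Zbtb16 was at 0.67, 0.89, 0.86 and 1.02 FPKM. The other marker, Ifitm3, which cells outside the germ line also express, was at 273, 269, 278 and 272 FPKM. Ifitm3 was thus the 1 marker of the 10 that reached 1 FPKM throughout. The 5 oocyte markers stayed under 1 FPKM in each. No pair of libraries was the same library deposited again. The mean chi-square per gene of the counts, which is near 1 for sampling noise, was 3.21 between 01 and 02 and 3.03 between 21 and 22, and 18.2 to 19.6 in the other pairs.

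Nearly all mitochondrial ribosomal protein genes were expressed. At 1 FPKM or more, 78, 77, 77 and 76 members were detected, and 76 were detected in all 4 libraries. The median member was at 18.5, 17.1, 19.5 and 18.5 FPKM. The median of all 11874 genes with a mean of at least 1 FPKM, which is the set used as background throughout, was 8.26, 8.35, 8.20 and 8.23 FPKM, and 73.3% of those genes lay under the median member. The members together summed to 1957, 1821, 2025 and 1988 FPKM. They took 0.425%, 0.4004%, 0.446% and 0.441% of all counts, with Wilson 95% intervals of 0.421% to 0.429%, 0.397% to 0.404%, 0.442% to 0.450% and 0.438% to 0.445%. Library 02 had the smallest share, and its interval lay apart from the others. These intervals, like all others here, cover counting error only. They can be too narrow even for that, since copies made by PCR are not independent molecules.

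**Figure D1:**
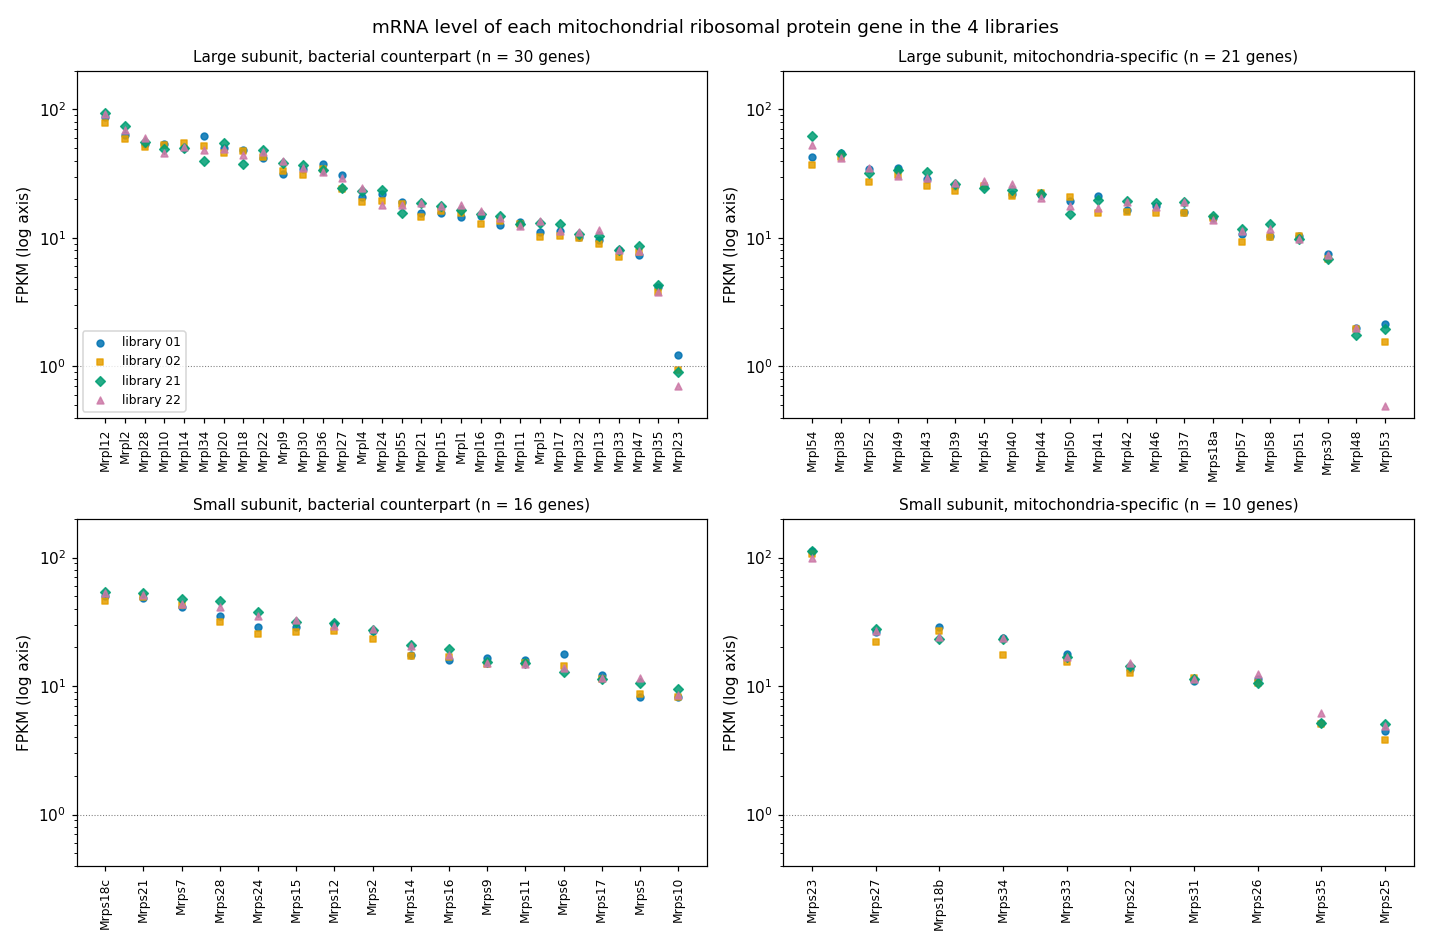
Level in FPKM (log axis) of each of the 77 subunit genes in libraries 01, 02, 21 and 22, in panels by subunit and origin and sorted by median. The dotted line marks 1 FPKM. The medians ran from 0.925 to 89.8 FPKM and from 1.75 to 47.5 FPKM in the large subunit panels, and from 8.37 to 51.6 FPKM and from 4.67 to 109 FPKM in those of the small subunit.

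Large and small subunit genes had similar mRNA levels. The median large subunit gene was at 19.2, 18.4, 19.6 and 18.7 FPKM and the median small subunit gene at 17.8, 17.1, 20.2 and 18.9 FPKM. The order of both medians differed between libraries, with the large subunit higher in 01 and 02 and the small subunit higher in 21 and 22. The order also depends on 2 choices. With subunits taken from the gene name alone, the large subunit was higher in all 4 libraries, at 20.8, 19.1, 19.8 and 18.9 FPKM against 17.6, 15.4, 16.8 and 16.9 FPKM. Per kilobase of the principal transcript in GENCODE M21, in place of all exons, the small subunit was higher in all 4. This scale divides all counts of a gene by that length. Reads from exons outside the principal transcript stay in, so it can overstate the level of that transcript. By contrast single genes differed widely, and 64 of the 78 members had medians between 10 and 60 FPKM, 11 were lower and 3 were higher.

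Among large subunit genes with a bacterial counterpart, Mrpl12 had the highest median in FPKM. It encodes the protein of the flexible stalk that contacts translation factors, and was at 87.8, 78.5, 93.0 and 91.8 FPKM. Mrpl2, whose bacterial counterpart lies next to the catalytic centre, followed at 63.5, 58.9, 74.0 and 69.3 FPKM, and Mrpl28 at 54.3, 51.5, 55.4 and 59.8 FPKM. All 3 were lowest in library 02. Mrpl10, whose product anchors the stalk, had a median of 51.3 FPKM, below that of the stalk protein. The lowest of this list was Mrpl23, whose bacterial counterpart sits at the exit of the peptide tunnel, with 74, 60, 55 and 44 counts, or 1.23, 0.94, 0.91 and 0.70 FPKM. The next lowest, Mrpl35, Mrpl47 and Mrpl33, had medians of 3.99, 7.87 and 8.06 FPKM. Per kilobase of the principal transcript of GENCODE M21, with all counts of a gene kept, Mrpl33, Mrpl30 and Mrpl20 had medians of 123, 116 and 109. These lay above the 105 of Mrpl12. On that scale Mrpl35, at 4.47, lay below Mrpl23, at 6.53.

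Genes for proteins at the exit of the peptide tunnel differed widely in level. Mrpl22 was at 42.1, 42.4, 48.5 and 46.4 FPKM and Mrpl24 at 22.2, 19.6, 23.7 and 18.1 FPKM, both above Mrpl23 in every library. Mrpl45, which tethers the tunnel exit to the inner membrane, was at 25.5, 25.5, 24.6 and 27.7 FPKM, and Mrpl44, which resembles an RNase III, at 21.5, 22.2, 22.1 and 20.3 FPKM. In the stalk region, Mrpl11, whose bacterial counterpart lies at the stalk base, was at 13.2, 12.8, 12.9 and 12.3 FPKM and Mrpl10 at 53.5, 52.9, 49.7 and 46.1 FPKM, far below Mrpl12 in each library.

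The mitochondria-specific proteins of the large subunit were led by Mrpl54 at 42.5, 36.7, 62.6 and 52.5 FPKM, Mrpl38 at 46.1, 42.8, 45.2 and 42.1 FPKM and Mrpl52 at 34.4, 27.0, 32.0 and 35.0 FPKM. Libraries 21 and 22 were the high ones for Mrpl54, whereas Mrpl38 was even. Per kilobase of the principal transcript, Mrpl42, Mrpl52 and Mrpl38 had medians of 97.7, 88.1 and 79.5, above the 64.9 of Mrpl54. Mrpl58, a peptidyl-tRNA hydrolase built into the ribosome, was at 10.3, 10.1, 12.8 and 11.8 FPKM. Mrps30, of the large subunit despite its symbol, was at 7.45, 6.91, 6.85 and 7.32 FPKM. The lowest of this list, Mrpl53, had only 21, 16, 19 and 5 counts, or 2.15, 1.55, 1.94 and 0.49 FPKM. Only 24.4% of its 100-base stretches were unique to it in the GENCODE M21 transcripts, and its level is therefore uncertain.

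Small subunit genes with a bacterial counterpart were led by Mrps18c at 50.5, 45.7, 54.2 and 52.6 FPKM, Mrps21 at 48.7, 49.6, 52.9 and 51.5 FPKM and Mrps7 at 41.6, 42.5, 48.0 and 43.6 FPKM. Mrps12, whose counterpart in bacteria helps to monitor decoding, had a median of 29.9 FPKM. The lowest, Mrps10, was at 8.23, 8.18, 9.41 and 8.50 FPKM. Its place depends on the length used. On the principal transcript of GENCODE M21, Mrps10 had a median of 66.4 per kilobase, above the 45.5 of Mrps7. None of the 16 genes of this list was below 8 FPKM in any library.

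Mrps23, mitochondria-specific and of the small subunit, had the highest median of all members, at 113, 106, 112 and 99.9 FPKM. It stood far above the rest of its list, where Mrps27 came next at 26.5, 22.2, 27.6 and 26.7 FPKM and Mrps18b followed at 29.1, 26.8, 23.1 and 24.3 FPKM. Mrps25 was lowest, at 4.45, 3.83, 5.11 and 4.88 FPKM, and only 33.6% of its stretches were unique to it. Mrps36 was at 12.6, 10.3, 13.5 and 12.5 FPKM.

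The Mrps18 trio derives from one bacterial protein, and its products sit at different places in the ribosome. Mrps18c, counted with the bacterial-type small subunit genes, had a median of 51.6 FPKM. Mrps18b, of the small subunit, had 25.6 FPKM, and Mrps18a, of the large subunit, 14.4 FPKM. Their order in FPKM was the same in every library. It depends on the length used, since the deposited exonic size joins the exons of all isoforms. Per kilobase of the principal transcript of GENCODE M21 the medians were 86.9 for Mrps18c, 49.5 for Mrps18b and 59.98 for Mrps18a, so the latter pair changed places. Exonic size exceeded the length of the principal transcript by a median factor of 1.37 over all members and by a factor of 15.3 for Mrpl33. On the principal transcript Mrpl33 had a median of 123, close to the 127 of Mrps23, against 8.06 FPKM as deposited. That value places reads from all of its exons on the principal transcript and can be far too high. Over all members, median FPKM was lower at larger exonic size, with a Spearman correlation of -0.72. With the factor of exonic size over principal transcript length the correlation was only -0.21. The standard deviation of the members' log2 medians was 1.22 as deposited and 1.23 per kilobase of the principal transcript.

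Several members lie close to other genes. On the deposited coordinates, whose build is not given in the sources used here, the 78 members were spread over 17 chromosomes, 11 of them on chromosome 11. The start of a gene on the opposite strand lay within 1000 bases of the start of 37 members, or 47.4%, against 26.7% of the background genes. One such pair joins 2 members, Mrpl46 (chromosome 7, 78424984 to 78433279, minus strand) and Mrps11 (chromosome 7, 78432867 to 78442737, plus strand), whose starts are 412 bases apart and whose bodies overlap. Mrpl46 was at 17.7, 15.8, 18.6 and 17.5 FPKM and Mrps11 at 16.0, 15.2, 15.2 and 14.9 FPKM. The bodies of 40 members overlapped another gene of the table, 35 of them a gene on the other strand. No strand-keeping step is named in the labels, so reads from such overlaps could not be told apart with certainty.

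Promoters of nuclear genes for mitochondrial proteins are known for sites of the factors NRF1, GABP of the ETS family, and YY1. RefSeq promoter windows on GRCm38.p6, from 250 bases before to 50 after the start of a gene, were matched for 69 members by symbol. The NRF1 motif, a GC-rich run with one free base, was found on either strand in 18.8% of these genes, the letters CCGGAAG (ETS) in 37.7% and AAGATGGC (YY1) in 17.4%. Of 8673 background genes with a window, 12.6%, 22.1% and 5.7% held them, and of all 32851 windows 4.6%, 8.9% and 2.7%. The letters GGGCGG (SP1) were in 49.3% of the members and 71.2% of the background genes, and CACGTG (the E-box that MYC and its partner MAX can bind) in 7.2% and 12.2%. For the core letters of the promoter element, TATAAA, these shares were 7.2% and 8.1%. The letters CCAAT were found in 39.1% and 43.6%. The last letters of the ETS motif are the first of the YY1 motif, so that matches to both can overlap, and other pairs can share a few letters. A match is a run of letters and not a site shown to be bound. The windows of 3 members are shown, 1 for each of the motifs named first. Mrpl12 was taken as the highest gene of its list in FPKM (chr11:120484387-120484686, plus strand). Mrpl34 (chr8:71464676-71464975, plus strand) and Mrps24 (chr11:5707652-5707951, minus strand) were taken as genes with wide ratios between libraries. The deposited starts of these genes differ from those on GRCm38.p6. Gene positions given here from the deposited coordinates therefore cannot be set beside the windows. Capitals mark the NRF1 letters in Mrpl12, the ETS letters in Mrpl34 and the YY1 letters in Mrps24.
Mrpl12: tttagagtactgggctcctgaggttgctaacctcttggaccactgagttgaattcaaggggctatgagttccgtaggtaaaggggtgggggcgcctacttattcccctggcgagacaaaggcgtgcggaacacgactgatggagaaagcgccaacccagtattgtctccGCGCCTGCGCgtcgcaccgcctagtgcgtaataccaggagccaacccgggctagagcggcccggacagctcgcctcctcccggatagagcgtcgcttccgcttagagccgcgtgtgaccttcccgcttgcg
Mrpl34: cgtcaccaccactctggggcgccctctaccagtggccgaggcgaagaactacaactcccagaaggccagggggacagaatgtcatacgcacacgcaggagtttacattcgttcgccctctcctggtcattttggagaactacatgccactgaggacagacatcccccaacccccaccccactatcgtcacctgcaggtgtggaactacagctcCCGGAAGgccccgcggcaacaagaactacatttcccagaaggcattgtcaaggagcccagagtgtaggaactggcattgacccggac
Mrps24: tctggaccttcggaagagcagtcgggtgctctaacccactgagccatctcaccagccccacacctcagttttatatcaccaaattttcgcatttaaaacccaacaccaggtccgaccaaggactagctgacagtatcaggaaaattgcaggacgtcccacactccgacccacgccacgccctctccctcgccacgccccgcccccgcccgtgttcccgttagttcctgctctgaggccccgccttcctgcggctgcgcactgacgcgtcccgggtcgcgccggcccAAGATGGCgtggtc
The marked letters in Mrps24 lie after the start of the gene, those in the other windows before it. The 13 members with the NRF1 motif had a median of 25.5 FPKM, against 17.6 FPKM for the 56 without, and a median log2 range (the highest minus the lowest library) of 0.18 against 0.27. For the YY1 motif the medians were 22.1 FPKM in 12 members and 18.3 FPKM in 57, and the ranges 0.20 and 0.27. The ETS motif went the other way, with 17.2 FPKM in 26 members and 18.5 FPKM in 43, and ranges of 0.27 and 0.25. These are descriptions with no test.

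Over the libraries the members varied about as much as other genes, with few wide differences. As a measure of spread, the lowest log2(FPKM + 1) was subtracted from the highest, here called the log2 range. Its median was 0.26 over the 77 members with a mean of at least 1 FPKM, against 0.27 over the background genes. In 26 of 77 members, or 33.8%, the highest library was at least 25% above the lowest with Poisson 95% intervals apart, against 34.7% of the background genes, a share near the background. Without the condition on intervals the count was 27, against 49.5% of the background genes. The list holds fewer wide ranges. A log2 range over 0.5 was found in 5 members, or 6.5%, and in 17.3% of the background genes. At 1.5-fold the count was 3 members, against 13.3% of the background genes. The background genes were at lower levels, with a median of 8.29 FPKM against 18.4 FPKM for the members. The part of level in their wider ranges was not tested. By list the 26 members were 11 of 29 and 8 of 21 large subunit genes with and without a bacterial counterpart, and 4 of 16 and 3 of 10 small subunit genes.

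The steadiest members with a mean of 5 FPKM or more were Mrps31, Mrpl51 and Mrps18a, each with a log2 range of 0.08, Mrps11 with 0.09 and Mrps17 with 0.10. Mrps31 was at 10.9, 11.6, 11.4 and 11.3 FPKM, Mrpl51 at 10.3, 10.4, 9.78 and 9.80 FPKM, and Mrps17 at 12.2, 11.3, 11.3 and 11.6 FPKM. The Poisson intervals of all 4 libraries overlapped for each of these 5 genes.

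Mrpl54 had the widest ratio among members above 5 FPKM. It had 433, 395, 640 and 557 counts, and its gene lies on chromosome 10 (81100547 to 81102768, minus strand). The highest library, 21, was at 1.71-fold of the lowest, 02, and the intervals of libraries 21 (57.9 to 67.7 FPKM) and 22 (48.3 to 57.1 FPKM) lay above those of 01 (38.6 to 46.7 FPKM) and 02 (33.2 to 40.5 FPKM). All of its stretches were unique to it. Mrps24, whose product is the counterpart of bacterial S3, was at 28.9, 25.5, 37.7 and 35.3 FPKM, 1.48-fold from lowest to highest. Mrps28, whose product is the counterpart of bacterial S1, was at 35.1, 31.4, 45.7 and 41.5 FPKM, 1.45-fold. For Mrps24 the intervals of 21 and 22 lay above those of 01 and 02, while for Mrps28 those of 01 (31.5 to 39.0 FPKM) and 22 (37.7 to 45.7 FPKM) overlapped. Mrps5 was at 8.24, 8.63, 10.6 and 11.6 FPKM, 1.40-fold, with library 22 highest and 01 lowest. Mrpl3, whose bacterial counterpart reaches towards the catalytic centre, was at 11.2, 10.2, 13.2 and 13.5 FPKM, again with 21 and 22 above 01 and 02.

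Mrpl34 ran the other way. Its gene is one of the shortest of the list, with an exonic size of 607 bases (chromosome 8, 71917603 to 71918391, plus strand), and its level was 61.8, 51.8, 39.8 and 48.2 FPKM. Library 01 was highest, and 21 lowest by a ratio of 1.55. The intervals of 02 (46.9 to 57.1 FPKM) and 22 (43.5 to 53.3 FPKM) overlapped. Mrps6 was at 17.8, 14.3, 12.9 and 13.8 FPKM, highest in 01, and Mrpl50 at 19.2, 20.9, 15.5 and 17.8 FPKM, highest in 02. Mrps34, whose product is needed for a stable small subunit, was at 23.6, 17.4, 23.4 and 23.7 FPKM, so that library 02 alone was low. Only 33.0% of the stretches of Mrps34 were unique to it. The 2 members near 1 FPKM had the widest ratios of all, 4.37-fold for Mrpl53 and 1.75-fold for Mrpl23, both highest in 01 and lowest in 22 and both from few counts. For Mrpl53 a ratio that rests on 5 counts is given without further reading.

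**Figure D2:**
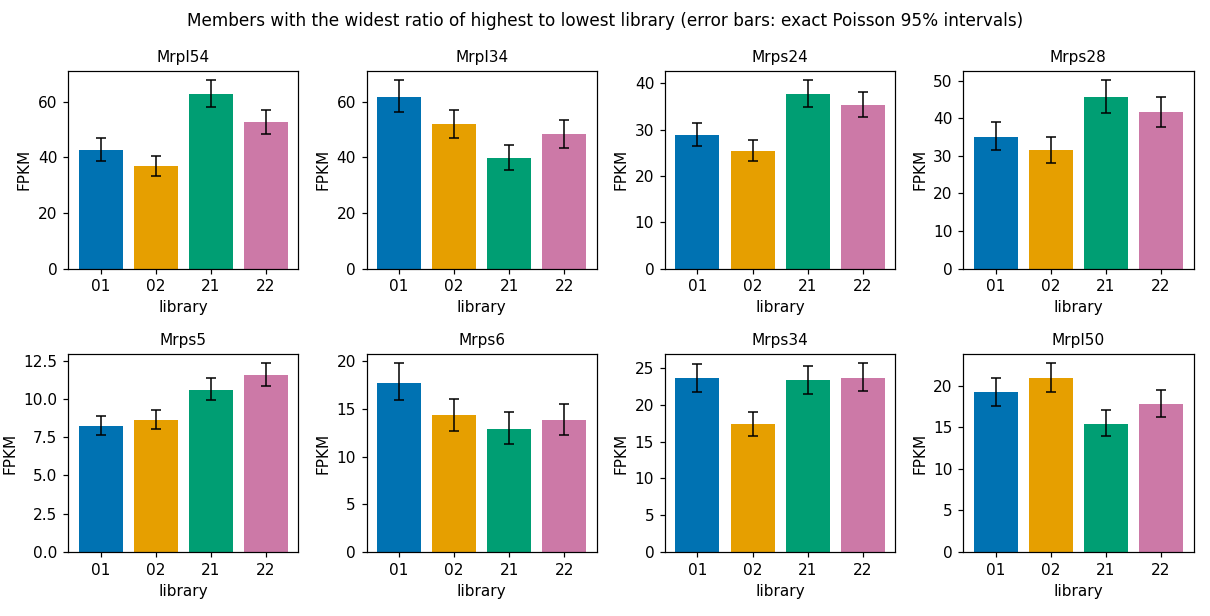
FPKM in each library (bars, from 0) with exact Poisson 95% intervals (error bars) for the 8 members above 5 FPKM with the widest ratio of highest to lowest library, each with its own axis. Mrpl54, Mrps24 and Mrps28 were higher in 21 and 22 than in 01 and 02, Mrpl34 was highest in 01, and Mrps34 was low in 02 only.

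Most members were slightly lower in library 02 than in the other libraries. Library 02 was the lowest of the 4 for 43 of 77 members, or 55.8%, against 25.5% of the background genes. The other libraries were the lowest less often, 12 members in 01 (25.6% of the background genes), 10 in 21 (25.0%) and 12 in 22 (23.9%). Library 21 was the highest for 31 members (23.9% of the background genes), 22 for 22 (25.1%), 01 for 19 (24.7%) and 02 for 5 (26.4%). Of large subunit genes 25 of 50 were lowest in 02, and of small subunit genes 17 of 26, so that both subunits held the pattern.

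**Figure D3:**
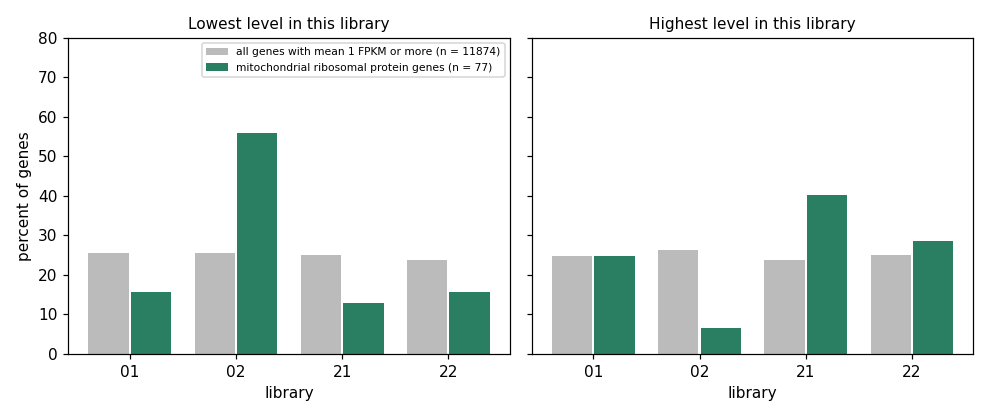
Percent of genes whose lowest (left) or highest (right) FPKM was in each library, for the 77 mitochondrial ribosomal protein genes (green) and all 11874 background genes (grey). Library 02 is the lowest for 55.8% of the members against 25.5% of the background genes.

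The pairs of libraries give the size of these differences. They share libraries and are not independent of each other. Between 01 and 02 the median log2 ratio of the members, 02 over 01, was -0.10, against 0.00 for the background genes, and only 16 of the 77 members were above 0, against 50.3% of the background genes. At a difference of 25% with intervals apart, no member was higher in 02 (1.78% of the background genes) and 4 were lower (1.43%), namely Mrpl27, Mrpl41, Mrpl52 and Mrps34. Between 21 and 22 the median, 22 over 21, was -0.02. No member was higher in 22 (1.58% of the background genes), and Mrpl24 and Mrpl53 were lower (1.15%).

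The median of 21 over 01 was 0.06, with 4 members higher (7.83% of the background genes), Mrpl54, Mrps24, Mrps28 and Mrps5, and 4 lower (10.2%), Mrpl18, Mrpl34, Mrps18b and Mrps6. The median of 22 over 01 was 0.04, with 2 members higher (8.13%) and 3 lower (9.88%). Against library 02 the medians were larger, 0.17 for 21 and 0.14 for 22. In 21 over 02, 11 members were higher (7.76% of the background genes) and 2 lower (10.8%), and in 22 over 02, 12 were higher (7.83%) and none lower (10.8%). The members called higher against 02 in both 21 and 22 were Mrpl3, Mrpl21, Mrpl54, Mrps24, Mrps25, Mrps28 and Mrps34.

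**Figure D4:**
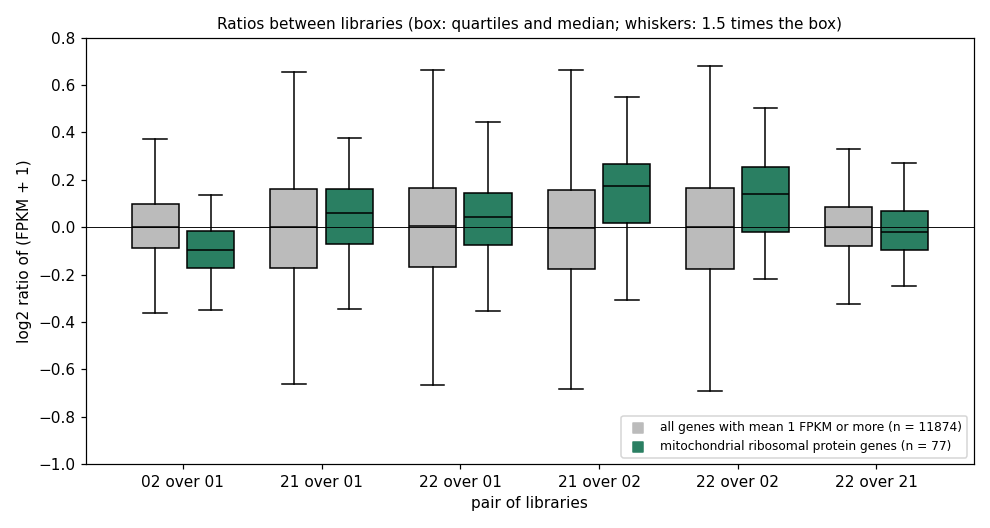
Log2 ratio of (FPKM + 1) in the 6 pairs of libraries for the 77 members (green) and the 11874 background genes (grey), with the median (line), quartiles (box) and whiskers of 1.5 times the box. The members' median was -0.10 for 02 over 01, 0.17 for 21 over 02 and 0.14 for 22 over 02, and between -0.02 and 0.06 in the other pairs.

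The ratio of 02 to 01 moved with exonic size, for the members and for other genes. Among members with a mean of at least 5 FPKM the median log2 ratio was -0.18 for 8 genes of up to 1000 bases, -0.14 for 22 genes of 1000 to 2000, -0.08 for 25 genes of 2000 to 4000 and -0.03 for 18 longer ones. Over all genes of that level the medians were -0.05, -0.06, -0.03 and 0.02. The members' median lay below that of all genes in each size class, and they were shorter, with a median exonic size of 2394 bases against 4037 for the background genes. The other pairs with library 02 showed no such steady order in the members. From short to long their medians were 0.14, 0.18, 0.20 and 0.11 for 21 over 02, and 0.12, 0.14, 0.18 and 0.13 for 22 over 02. Over all genes of that level they were 0.08, 0.07, 0.04 and -0.01, and 0.07, 0.06, 0.04 and 0.003. The part of size in the low values of library 02 was not tested.

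**Figure D5:**
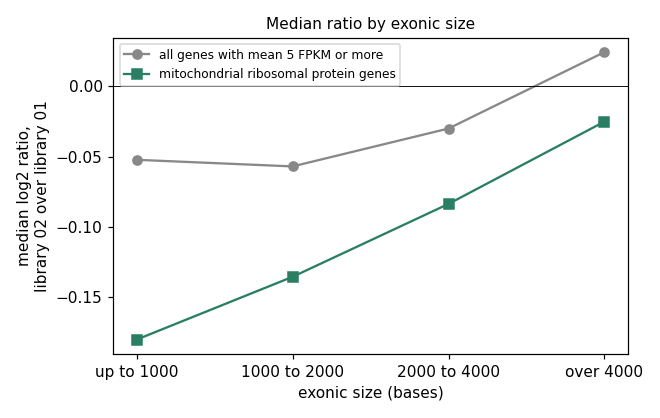
Median log2 ratio of (FPKM + 1), library 02 over library 01, in 4 classes of exonic size, for the members (green) and all genes with a mean of at least 5 FPKM (grey). Both lines are lower for short genes, and the members' line lies below the other in each class.

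Genes that work with the mitochondrial ribosome did not share one pattern. The 5 subunit genes with other symbols included Dap3, a GTP-binding protein of the small subunit, at 6.68, 6.92, 9.55 and 9.39 FPKM, Aurkaip1 at 32.7, 29.6, 39.7 and 40.2 FPKM and Gadd45gip1 at 11.4, 11.1, 14.8 and 14.8 FPKM. These 3 of 5 had differences past 25% with intervals apart (34.7% of the background genes), and libraries 21 and 22 were the high ones in each. Chchd1 was at 60.7, 52.6, 54.7 and 49.4 FPKM and Ptcd3 at 13.5, 13.8, 13.7 and 14.7 FPKM, neither of which passed. The median log2 ratio of the 5 was -0.04 for 02 over 01.

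Assembly factors, which modify rRNA and mature the subunits, stood at a median over the list of 7.98, 7.21, 6.63 and 7.19 FPKM, and 25 of 26 were detected in every library. Ngrn led with a median of 25.5 FPKM, followed by Rbfa with 23.5 FPKM. Of 25 genes with a mean of at least 1 FPKM, 7 passed 25% with intervals apart (34.7% of the background genes), among them the rRNA methyltransferase gene Mrm1 at 14.8, 14.4, 10.1 and 10.9 FPKM. In 21 over 01, 4 of these genes were lower (10.2% of the background genes) and none higher (7.83%). Their median log2 ratio of 02 over 01 was -0.09, near the -0.10 of the members. Among the 25 genes the widest log2 range belonged to Mrm1, 0.51. Fastkd2, left out of the 25 by its mean under 1 FPKM, had 0.57, at 0.79, 1.04, 0.76 and 0.37 FPKM.

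The median factor of mitochondrial translation stood at 7.26, 7.39, 7.19 and 7.15 FPKM, all 14 detected in every library, and 4 passed, again beside 34.7% of the background genes. The elongation factor gene Tufm was the highest and nearly even, at 37.3, 38.7, 38.1 and 37.3 FPKM, and Gfm1, the other leading elongation factor gene, was at 25.4, 25.2, 32.0 and 31.0 FPKM. Mtrf1, related to release factors, varied most (2.89, 3.75, 2.98 and 4.64 FPKM, a log2 range of 0.54). The median log2 ratio of 02 over 01 was 0.06 for this list, in the other direction from the ribosomal proteins and the assembly factors.

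Genes for the copying, transcription and RNA processing of mitochondrial DNA had a median of 16.2, 16.2, 13.6 and 13.6 FPKM over 15 genes, and 6 passed (34.7% of the background genes). Hsd17b10, a subunit of mitochondrial RNase P, was the highest at 57.2, 53.5, 56.3 and 54.9 FPKM, followed by Lrpprc with a median of 26.1 FPKM. Tfb2m, a transcription factor of mitochondrial DNA, varied most, with a log2 range of 0.70 and values of 4.74, 5.42, 3.57 and 2.94 FPKM. For this list the median log2 ratio of 02 over 01 was -0.02. The rRNAs themselves, which poly(A) selection captures only in part, were at 1790, 1820, 1568 and 1590 FPKM for mt-Rnr1 and 1083, 1127, 926 and 972 FPKM for mt-Rnr2. Both were higher in 01 and 02 than in 21 and 22, while the members' sum was highest in 21.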

How the data were processed

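RNA was extracted with Trizol, selected for poly(A), fragmented, copied from random primers and sequenced, per the labels' protocols. The deposited counts are whole numbers with a different total in each library and were taken as raw. The authors gave FPKM beside the counts, per the file headers, and dividing counts by exonic size and library total returned it within 0.05% above 10 FPKM. The submitters' processing notes list the tools FastQC, HISAT2 and DESeq2. Of the read counter, build, annotation and strand setting, none is stated.

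The labels place no library in a group, so no test between groups was made. With Python 3.11.15, numpy 2.4.6, pandas 2.3.3 and scipy 1.17.1, levels, log2 ranges (pseudocount 1), ratios of 25% or more with exact Poisson 95% intervals apart, and counts of the lowest and highest library were computed, each beside all genes whose mean reached 1 FPKM. The calculations were tested on simulated counts with Poisson noise only. Such counts check the calculations and not the spread between real libraries, which was wider. For sequence shared between genes, 100-base windows of GENCODE M21 transcripts were looked up in all other genes, whichever annotation the authors used. The gene lists found all symbols but 1, Mrpp3.

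The members and lists were chosen with earlier results of these data known. Named genes are, per list, the 3 highest medians, the lowest and the 2 widest ranges, then the 10 widest ratios, the 5 smallest ranges, members under 1 FPKM and 6 chosen for their role. Mrpl10, Mrpl11, Mrpl22, Mrpl24, Mrpl33, Mrpl35, Mrpl44, Mrpl45, Mrpl46, Mrpl47, Mrpl58, Mrps12, Mrps35 and Mrpl48 and the genes listed by pair were named after their values were seen. So were Mrpl20, Mrpl30 and Mrpl42. Alternatives were other thresholds, pseudocounts, filters, scalings and a count of uniquely matched members.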

Additional observations from a re-analysis of the deposited data

Results flagged for a closer look

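Among 73 members with a mean of at least 5 FPKM, 3 had a library far from the others by the gap to its nearest neighbour over the whole range, or 4.11%, where chance alone gives about 1 in 20. Of all 7731 genes at that level 3.52% did, so the members' share is near that of other genes. Mrpl33 (gap 0.950 of the range) and Mrps34 (0.949) were low in library 02, and Mrps35 (0.900) was high in library 22. Mrpl33 was at 8.04, 7.05, 8.07 and 8.09 FPKM and Mrps35 at 5.17, 5.06, 5.14 and 6.16 FPKM. The libraries are in no group, so these are descriptions of single libraries.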

How the results depend on the processing

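Of 151 alternative values, 118 stayed within their limits and 33 moved. No single value changed sign, but the order of the 2 subunit medians did change. The limits were 1.5 times for counts, counting error for sums and the binomial interval of the median for medians. The count of members whose libraries differed was 51 at 1.1-fold (55.3% of the background genes) and 3 at 1.5-fold (13.3%), 23 to 28 under the scalings (34.9% to 35.2%), 27 with no filter (21.0%), 24 from 5 FPKM (32.9%) and 27 without the condition on intervals (49.5%). For single pairs, with the share of the background genes in parentheses, 1.1-fold gave 8 members lower in 02 than in 01 (3.58%), 17 higher in 21 than in 01 (15.9%), and 13 higher (2015 of 11874 genes) and 8 lower (15.4%) in 22 than in 01. It gave 30 higher in 21 than in 02 (16.1%), 29 higher (16.8%) and 1 lower (16.6%) in 22 than in 02, and 2 higher (3.46%) and 5 lower (2.64%) in 22 than in 21. At 1.5-fold each pair gave 0 or 1 member in either direction, where 0.404% to 4.34% of the background genes passed. Without the condition on intervals, 1 member was lower in 22 than in 02. The sum of the members in 02 over 01, 0.930 as deposited, was 0.950 with FPKM rescaled to a common sum and 0.943 as a share of counts. As a share of counts the sums of 21 and 22 over 01 were 1.050 and 1.038, against 1.035 and 1.016. The median ratios of the pairs kept their sign under each scaling, both pseudocounts and in members with at least 90% unique stretches. Per kilobase of the principal transcript, chosen after seeing the data, the large subunit medians became 31.8, 31.1, 35.3 and 33.1 and the small subunit medians 35.4, 31.4, 37.5 and 37.0, so that the small subunit was higher in every library. By gene name alone the large subunit was higher in every library. No paired analysis was possible because the labels place no library in a group. Counting error limits Mrpl23 and Mrpl53.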

Other observations

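Of the pseudogene rows that the rule leaves out, Mrpl48-ps had 144, 194, 164 and 180 counts, beside 200, 206, 179 and 210 for Mrpl48 itself. The shorter pseudogene row stood at 18.4, 23.4, 20.8 and 22.0 FPKM and Mrpl48 at 1.99, 1.94, 1.77 and 2.00 FPKM, and transcripts of the 2 share sequence in GENCODE M21. Mrpl23-ps1 had 21, 17, 18 and 22 counts beside 74, 60, 55 and 44 for Mrpl23. Mrps36-ps3 had no count in any library. The counts of both pairs are as deposited, and which locus gave the reads cannot be told apart from the tables.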
